A study of Mus musculus with 11 samples.

Results

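The clustered histone genes are the rows of the count table whose symbol begins with Hist1h, Hist2h, Hist3h or Hist4h, and there were 68 of them among 24411 rows. By the type written in the symbol, 6 were H1, 18 were H2A, 19 were H2B, 12 were H3 and 13 were H4 genes. Whole testes of mice aged 20 weeks were analysed as RNA from 4 wild-type (WT) mice, labelled C57Bl/6J, from 4 Irp1-/- mice with a global knockout of Aco1, and from 3 Irp2-/- mice with a global knockout of Ireb2. The Irp1-/- line was kept on C57Bl/6J and its wild-type controls were littermates from crosses of heterozygous animals, whereas the source of the Irp2-/- line is not given in the sources used here; the same WT mice served both comparisons. No mouse was treated. Both knockouts were global, so every testicular cell type carried them, and fewer cells of a type cannot be told apart from less RNA per cell in these bulk samples.

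Histones package DNA into nucleosomes. The core histones H2A, H2B, H3 and H4 form the particle around which DNA is wound, and the linker histone H1 binds where DNA enters and leaves it. Most genes of the clusters are replication-dependent: they are transcribed in S phase, lack introns, and their mRNA ends in a short stem-loop bound by Slbp in place of a poly(A) tail. In the testis, dividing spermatogonia and preleptotene spermatocytes use these genes for DNA replication, spermatocytes add testis histones such as Hist1h1t (H1t), Hist1h2aa (TH2A) and Hist1h2ba (TH2B), and elongating spermatids replace most histones with transition proteins and protamines. The libraries were made from polyadenylated RNA, so the counts describe histone RNA that was carried through that selection and not all histone mRNA.

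Of the 68 genes, 54 lie on chromosome 13 of mm10 between 21715763 and 23934851, 10 on chromosome 3 between 96219865 and 96270132, 3 on chromosome 11 and 1 on chromosome 6. GENCODE vM21, which uses the same build (GRCm38), had a model for all 68, and 63 had no model with more than 1 exon. The 16-base histone stem-loop, a stem of 6 base pairs around a loop of 4 bases, was found in the transcript models of 44 of the 68, against 0.0183% of 21810 other coding genes. By type it was in 4 of 6 H1, 11 of 18 H2A, 10 of 19 H2B, 8 of 12 H3 and 11 of 13 H4 genes. The polyadenylation signal AATAAA lay within the last 50 bases of a model in 15 of 68, against 65.9% of the other coding genes. Both counts depend on the models, and the stem-loop was searched as a fixed pattern. Some models, such as those of Hist1h2bl (381 bases) and Hist1h4k (312 bases), hold little or no sequence beyond the coding part. A feature missing from such a model can still be present in the RNA. The windows shown next include those of the most counted gene (Hist2h2aa1) and of the spermatocyte linker histone (Hist1h1t). They include the 2 genes with an adjusted p under 0.05 in a main comparison of genotypes, Hist1h2ag and Hist1h3a (edgeR). The remaining 4 are members with other stem-loops. Each window has 30 bases, 5′ to 3′ on the RNA strand, with the stem-loop in capitals.
Hist2h2aa1: aaaaaGGCTCTTTTCAGAGCCacccactga
Hist1h2ag: acaaaGGCTCTTTTCAGAGCCacctaacct
Hist1h3a: ccaaaGGCTCTTTTCAGAGCCacacacgat
Hist1h1t: ccaaaGGCTCTTTTAAGAGCCacttacata
Hist2h2ac: aaaaaGGCTCTTTTTAGAGCCaccaaatct
Hist1h4h: ccaaaGGCCCTTTTCAGGGCCgcccacatt
Hist1h4b: caaaaGGTCCTTTTCAGGACCactcactga
Hist1h4i: ttaaaGGCCCTTTTTAGGGCCaccacaaaa

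The window of Hist2h2aa1 is chr3:96246027-96246056 on the plus strand, that of Hist1h2ag is chr13:22042474-22042503 on the minus strand, and that of Hist1h3a is chr13:23761881-23761910 on the minus strand. That of Hist1h1t is chr13:23696520-23696549 on the plus strand, and that of Hist2h2ac is chr3:96220409-96220438 on the minus strand. The H4 windows are chr13:23531453-23531482 on the plus strand for Hist1h4h, chr13:23757361-23757390 on the plus strand for Hist1h4b and chr13:22040957-22040986 on the minus strand for Hist1h4i. All 8 come from transcript models with a single exon. Of the 44 members with a stem-loop, 43 had it in a transcript model with a single exon (Hist1h2bp also has a spliced model). Of these, 25 had the form printed for Hist2h2aa1, Hist1h2ag and Hist1h3a, and these were H1, H2A, H2B and H3 genes. A further 6 had that of Hist1h1t, and Hist2h2ac was alone with its form. The 11 H4 genes had other stems, 7 the form of Hist1h4h, 2 that of Hist1h4b and 2 that of Hist1h4i.

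Many members share so much coding sequence that a short read from it can match several genes. Each coding sequence was cut into all stretches of 50 bases, the length of a sequenced read, and each stretch was looked up in the GENCODE transcripts of every gene of the table. In 13 members no stretch was unique, in 50 fewer than 50% were, and in 6 (Hist1h1a, Hist1h1b, Hist1h1t, Hist2h2bb, Hist2h2be and Hist4h4) all were. The median was 89.0% for H1, 14.2% for H2A, 22.9% for H2B, 14.6% for H3 and 28.8% for H4 genes. Over whole transcript models, which add sequence outside the coding part, the unique share was 69.9% for Hist1h2bc, 68.5% for Hist3h2a and 65.3% for Hist2h3c1. It was 50.5% for Hist1h3a, 21.1% for Hist1h2ag and 0% for Hist2h2aa2. The coding sequences of Hist2h2aa1 and Hist2h2aa2 (390 bases) were identical, as were those of Hist2h3c1 and Hist2h3c2 (408 bases), and Hist3h2a lies within a transcript model of Trim17. How the authors' counting treated reads that match several genes is not given in the sources used here.

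**Figure D1:**
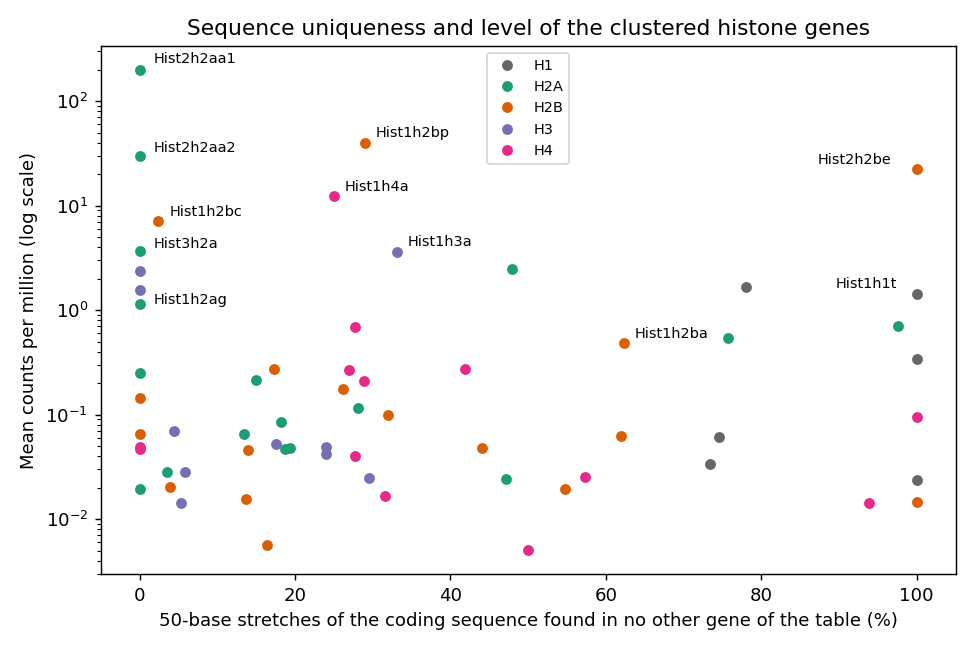
The horizontal axis gives the percentage of 50-base stretches of each coding sequence found in no other gene of the table, the vertical axis the mean CPM (counts of a gene per 1000000 counts of its library) over 11 libraries on a log scale, and each point is a member with at least 1 count and a coding sequence, coloured by type. Hist2h2aa1 is the highest point at 198.7 CPM and has no unique stretch, whereas Hist2h2be and Hist1h1t sit at 100%.

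The 11 libraries held between 15902473 and 22451417 counts, and levels are given as CPM, the counts of a gene per 1000000 counts of its library. Of the targeted genes, Aco1 reached 8.60 ± 0.605 CPM (SD, n = 4) across the Irp1-/- mice, whereas the WT mean was 11.7 ± 1.46 CPM (SD, n = 4), at a log2 fold change of -0.45 (SE 0.098, adjusted p = 0.0158, edgeR). It stayed called in 4 of 8 fits that left out 1 mouse, and WT replicates 2, 3 and 4 and Irp1-/- replicate 6 were the mice whose removal ended the call (adjusted p up to 0.0750). Ireb2 averaged 62.7 CPM over the Irp2-/- mice, whereas WT averaged 138.5 CPM (log2 fold change -1.16, SE 0.050, adjusted p = 2.84e-13, edgeR). Markers of testis were present, with spermatocyte Sycp3 at 137.0 to 154.4 CPM, protamine Prm1 at 2504 to 3755 CPM, and 6 epididymis markers at 0.252 CPM or less in sum.

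Clustered histone RNA was a small and uneven share of the libraries. All 68 together had 311, 332, 329 and 323 CPM in the WT mice, 356, 337, 350 and 384 CPM in the Irp1-/- mice, and 359, 305 and 305 CPM in the Irp2-/- mice. The Irp1-/- mice lay above every WT mouse, and the Irp2-/- mice lay on both sides of WT. These totals were not tested. Within them, Hist2h2aa1 and Hist2h2aa2 in sum averaged 245.8 CPM in Irp1-/- and 217.9 CPM in WT mice. H2A genes gave 71.0% of the histone CPM, H2B 21.4%, H4 4.17%, H3 2.33% and H1 1.06%. A single gene, Hist2h2aa1, gave 59.2%, and the first 5 (Hist2h2aa1, Hist1h2bp, Hist2h2aa2, Hist2h2be and Hist1h4a) gave 90.5%. In contrast, 4 members had no count in any library (Hist1h2ao, Hist1h2bf, Hist1h3g and Hist1h3i), 25 had fewer than 10 counts over all libraries, and 22 were counted in every library. The 11 members with at least 10 counts in every library held 96.5% of the histone counts. Of these 11, 6 had the AATAAA signal near the end of a model and 3 (Hist1h2bc, Hist2h2be and Hist1h4a) had no stem-loop in it, and of the other 57, 9 had the signal and 21 had no stem-loop. Models that end near the coding part limit these counts too.

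**Figure D2:**
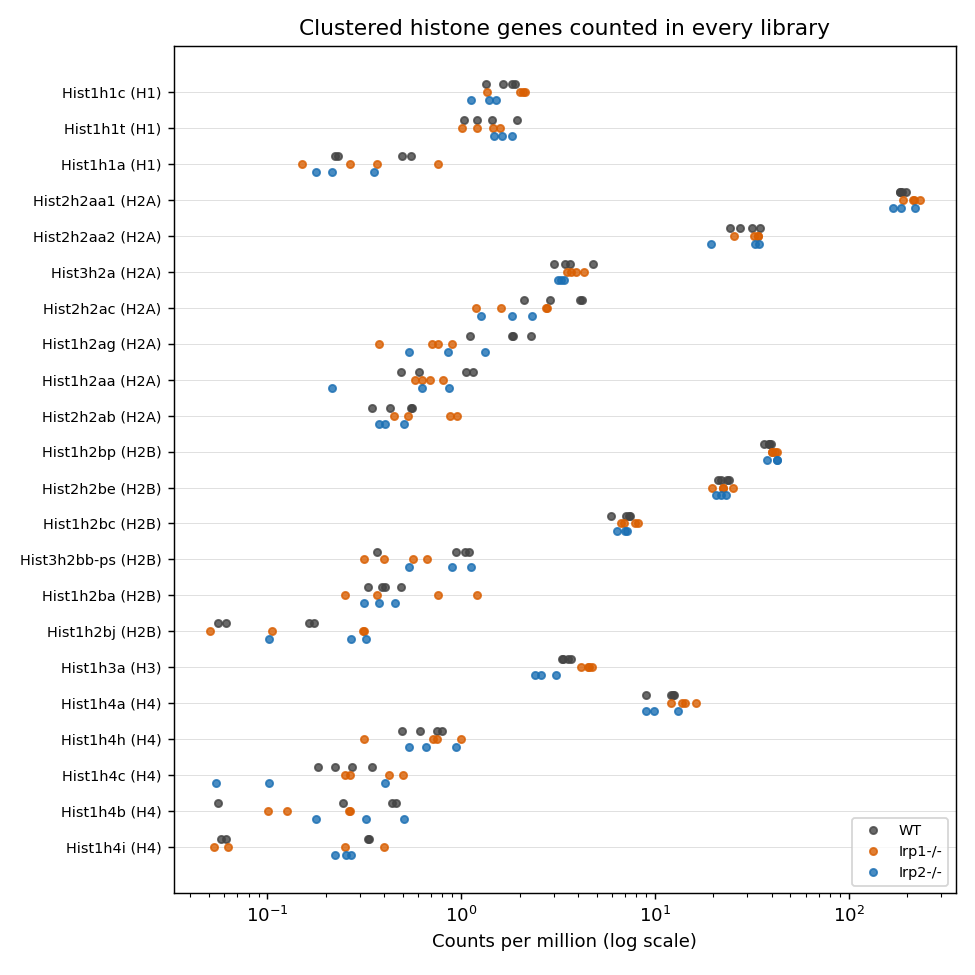
Each row is 1 of the 22 members counted in every library, each point a mouse, and the horizontal axis is CPM on a log scale. Hist2h2aa1 lies between 170 and 234 CPM in all mice, far from the other H2A genes, while Hist1h2ba, Hist1h2aa and Hist1h1t lie near or below 2 CPM.

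Per kilobase of the longest GENCODE transcript, which makes genes comparable, the order of the mean levels was Hist2h2aa1 (339 CPM per kilobase), Hist1h2bp (64.7), Hist2h2aa2 (57.1), Hist1h4a (22.7), Hist2h2be (8.55), Hist1h3a (6.81), Hist1h2bc (6.14) and Hist2h2ac (4.73). The authors' annotation could use other lengths, and of the 50-base stretches of the whole Hist2h2aa1 transcript only 10.8% were unique.

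The promoter windows of both abundant H2A copies are shown because they share sequence, and that of Hist1h2ba because it overlaps the window of its neighbour Hist1h2aa, which is not printed. RefSeq (GRCm38.p6) gave a window of 250 bases before and 50 after the start for 61 members. Capitals mark the CCAAT box, the TATA box word TATAAA and TTTGCAT, part of the octamer element, where these words were found, on either strand.
Hist2h2aa1: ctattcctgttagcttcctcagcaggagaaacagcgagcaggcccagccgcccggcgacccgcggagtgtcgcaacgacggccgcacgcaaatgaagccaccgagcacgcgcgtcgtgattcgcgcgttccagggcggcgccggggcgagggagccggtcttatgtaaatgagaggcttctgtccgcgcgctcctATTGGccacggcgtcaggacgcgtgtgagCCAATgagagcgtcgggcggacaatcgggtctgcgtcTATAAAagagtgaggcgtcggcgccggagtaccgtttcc
Hist2h2aa2: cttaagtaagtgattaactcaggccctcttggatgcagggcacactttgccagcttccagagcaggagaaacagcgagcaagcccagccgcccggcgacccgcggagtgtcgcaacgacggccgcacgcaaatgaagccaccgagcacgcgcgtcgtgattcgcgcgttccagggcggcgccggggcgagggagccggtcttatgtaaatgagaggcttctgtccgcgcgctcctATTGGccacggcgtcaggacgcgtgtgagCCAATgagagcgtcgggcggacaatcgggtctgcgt
Hist1h2ba: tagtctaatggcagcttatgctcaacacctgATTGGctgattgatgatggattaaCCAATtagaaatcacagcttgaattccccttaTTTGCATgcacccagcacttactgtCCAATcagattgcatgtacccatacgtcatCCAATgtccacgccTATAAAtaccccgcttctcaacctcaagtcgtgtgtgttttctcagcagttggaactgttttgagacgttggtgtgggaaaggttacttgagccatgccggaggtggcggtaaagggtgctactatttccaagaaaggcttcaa

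The window of Hist2h2aa1 is chr3:96245247-96245546 on the plus strand, that of Hist2h2aa2 is chr3:96240325-96240624 on the minus strand, and that of Hist1h2ba is chr13:23934107-23934406 on the minus strand. The windows of Hist2h2aa1 and Hist2h2aa2 share an identical run of 219 bases, which lies at different distances from their annotated starts. Hist1h2ba and Hist1h2aa are transcribed away from each other, and their windows overlap by 220 bases. Over 62 member windows, counting each annotated one, CCAAT was in 85.5% against 37.3% of 32788 other windows, TATAAA in 56.5% against 13.5%, and TTTGCAT in 24.2% against 4.59%. None of these words contains another. CCAAT was in all 50 windows of H1, H2A, H2B and H3 genes but in 3 of 12 H4 windows, and TTTGCAT in 7 of 17 H2A, 7 of 17 H2B and 1 of 12 H4 windows.

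The first comparison asked which histone genes differed between Irp1-/- and WT testes. In sums by type, H3 genes had 8.87, 8.64, 8.74 and 9.75 CPM in Irp1-/- mice and 7.12, 7.76, 7.39 and 8.27 CPM in WT mice, so every Irp1-/- mouse lay above every WT mouse. Sums of H2A genes were 235 to 275 CPM in Irp1-/- and 223 to 237 CPM in WT, and those of H4 genes 14.0 to 17.2 and 10.7 to 14.5 CPM, both overlapping between genotypes. As log2 ratios of the means, H3 was 0.24, H4 0.25, H2A 0.15, H2B 0.06 and H1 0.04 relative to WT, given as a description with no test. Without the most counted gene of the type the ratio was 0.12 for H3, -0.11 for H4 and -0.011 for H2A. For H3 that gene was Hist1h3a, with 46.4% of the H3 CPM. The sum of Hist2h3b, Hist2h3c1 and Hist2h3c2 overlapped, at 3.92 to 4.45 CPM in Irp1-/- and 3.45 to 4.72 CPM in WT mice.

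**Figure D3:**
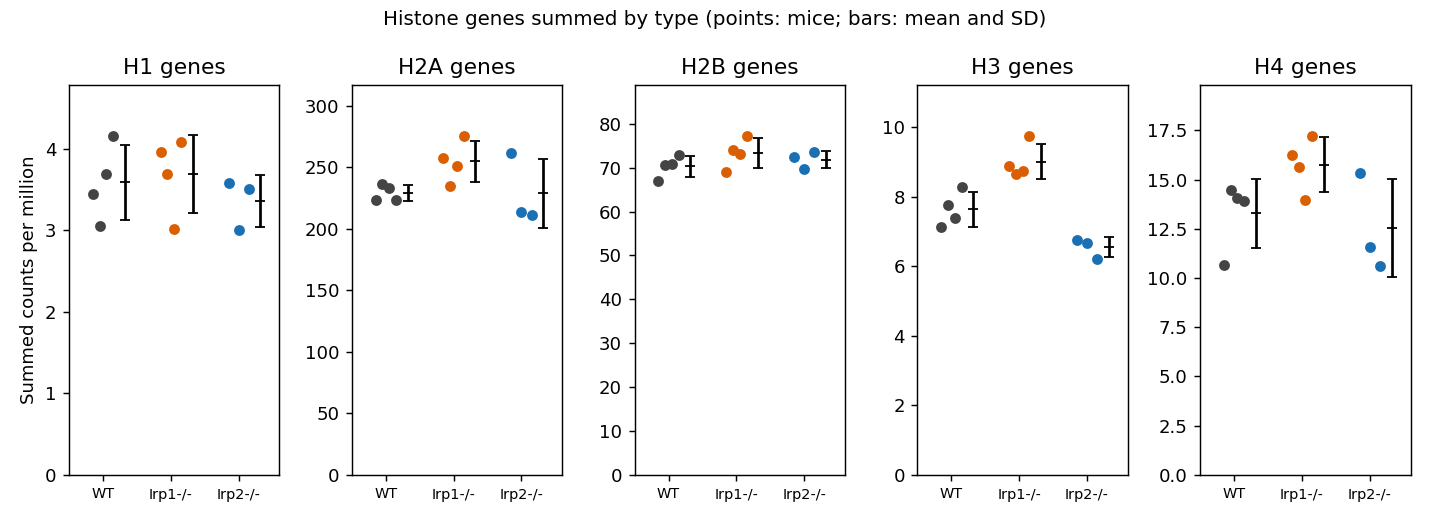
Each panel gives the summed CPM of 1 histone type on an axis from 0, with 1 point per mouse and the mean and SD beside the points. The 3 genotypes separate in H3, with Irp1-/- at 8.64 to 9.75, WT at 7.12 to 8.27 and Irp2-/- at 6.21 to 6.76. Hist1h3a alone gave 46.4% of the H3 CPM. The genotypes overlap in H1, H2A, H2B and H4.

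Of the 17 members with enough counts to be tested in edgeR, 1 was called at an adjusted p under 0.05, and 1.02% of the 16002 genes tested were called. The genotypes did not overlap in CPM for 3 of the 17 (Hist1h2ag, Hist1h2bp and Hist1h3a), against 6.18% of all genes tested. At an unadjusted p under 0.05 (edgeR) there were 6 of 17, against 1941 of 16002 genes. The median log2 fold change of the 17 was 0.07, against -0.00 over all genes tested, with 10 positive and 7 negative.

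The called gene was Hist1h2ag, an H2A gene at chromosome 13, 22042460 to 22042944 on the minus strand. It had 0.897, 0.757, 0.703 and 0.377 CPM in Irp1-/- mice, 2.30, 1.83, 1.85 and 1.11 CPM in WT mice, and 0.850, 1.32 and 0.540 CPM in Irp2-/- mice. Every Irp1-/- mouse lay below every WT mouse, on 6 to 17 counts against 20 to 42 per library. The log2 fold change was -1.35 (SE 0.28, adjusted p = 0.0105, edgeR). Hist1h2ag was called in each of 8 fits that left out 1 mouse, with an adjusted p up to 0.04999 (edgeR), just under the threshold.

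With its copies added, the difference no longer passed the threshold. No 50-base stretch of the Hist1h2ag coding sequence was unique, and it was linked through shared stretches with 10 other H2A genes (Hist1h2ab to Hist1h2af, Hist1h2ah, Hist1h2ai, Hist1h2an, Hist1h2ao and Hist1h2ap). The 11 together had 3.29, 4.03, 2.14 and 1.33 CPM in WT mice and 1.00, 1.96, 1.81 and 1.45 CPM in Irp1-/- mice. WT replicate 4 thus fell within the Irp1-/- range. With such copies summed to 1 row in the whole table, the log2 fold change was -0.79 (SE 0.32, adjusted p = 0.326, edgeR) and 0 of 13 histone rows were called, where 1.02% of 15998 genes were called. At an unadjusted p under 0.05 there were 6 of 13, against 12.1% of all genes in that fit. Whether reads moved between the copies was not tested.

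**Figure D4:**
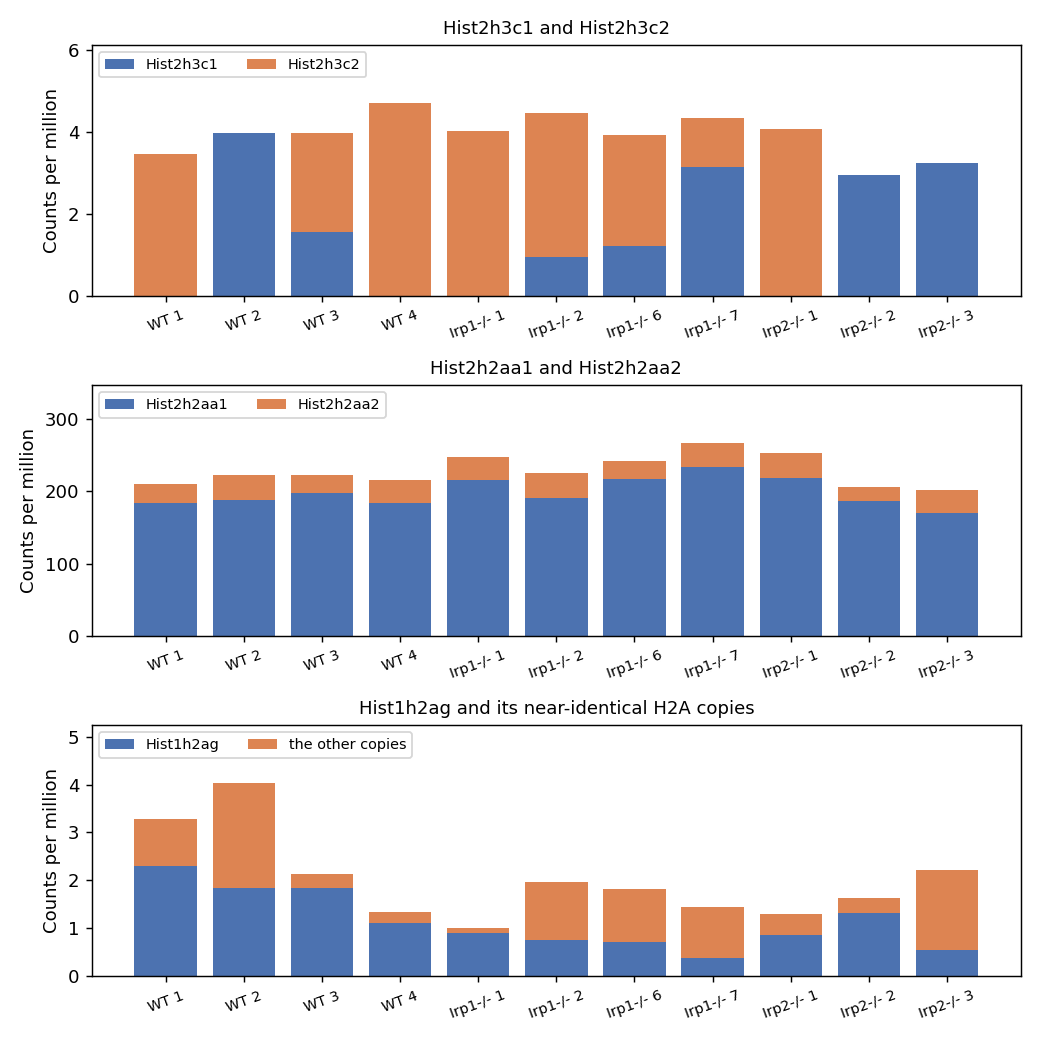
Stacked bars give the CPM of near-identical genes in each library on axes from 0, named by genotype and replicate number. Hist2h3c1 and Hist2h3c2 each drop to 0 in some libraries while together they hold 58 to 100 counts, the sum of Hist2h2aa1 and Hist2h2aa2 lies above WT in all Irp1-/- mice, and the summed copies of Hist1h2ag overlap between Irp1-/- (1.00 to 1.96) and WT (1.33 to 4.03).

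Hist2h2aa1 and Hist2h2aa2, replication-type H2A genes, carried most histone reads and were read together. Their sum was 248, 225, 243 and 268 CPM in Irp1-/- mice, 211, 223, 222 and 215 CPM in WT mice, and 254, 206 and 203 CPM in Irp2-/- mice. All Irp1-/- mice lay above WT, with 225.0 CPM in the lowest against 222.8 CPM in the highest WT mouse. The summed row had a log2 fold change of 0.16 (SE 0.044, adjusted p = 0.0786, edgeR). Hist2h2aa1 alone had 0.17 (SE 0.047, adjusted p = 0.0774, edgeR), and it was called without the count filter (adjusted p = 0.0342), by DESeq2 (adjusted p = 0.0470) and in edgeR without Irp1-/- replicate 2 (adjusted p = 0.00823). Over all alternatives its adjusted p ran up to 0.341, in the fit of all samples.

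The split between copies varied widely in the H3 pair Hist2h3c1 and Hist2h3c2. Hist2h3c1 had 0, 65, 27 and 0 counts in WT mice, 0, 21, 24 and 50 in Irp1-/- mice and 0, 58 and 60 in Irp2-/- mice. Hist2h3c2 had 63, 0, 42 and 85 counts in WT mice, 76, 79, 54 and 19 in Irp1-/- mice and 91, 0 and 0 in Irp2-/- mice. Hist2h3c1 was at 0 in 4 libraries and Hist2h3c2 in 3 others, neither was at 0 in the remaining 4, and the pair together had 58 to 100 counts in all 11 libraries. The share given to Hist2h3c2 ran from 0% to 100%, whereas the share of Hist2h2aa2 in its pair ran from 9.41% to 16.2%. With Hist2h3b added, the summed row had a log2 fold change of 0.05 (SE 0.13, edgeR) for Irp1-/- against WT and -0.22 (SE 0.16, edgeR) for Irp2-/- against WT, and the wide errors of the single genes (SE 0.76 to 1.53) were gone.

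Hist1h3a, an H3 gene at chromosome 13, 23761853 to 23762386 on the minus strand, was the member whose level ordered the 3 genotypes. It had 4.54, 4.14, 4.57 and 4.72 CPM in Irp1-/- mice, 3.56, 3.67, 3.35 and 3.33 CPM in WT mice, and 2.42, 3.10 and 2.59 CPM in Irp2-/- mice. No Irp1-/- mouse overlapped with WT, and no Irp2-/- mouse did. Of all genes tested, 6.18% and 9.76% did not overlap in these comparisons. With the 9 Hist1h3 genes linked by shared stretches summed, Irp2-/- replicate 2 (3.51 CPM) lay within the WT range of 3.41 to 3.79 CPM. Against WT the log2 fold change was 0.35 (SE 0.13, adjusted p = 0.237, edgeR) in Irp1-/- and -0.38 (SE 0.17, adjusted p = 0.430, edgeR) in Irp2-/-, and neither passed the threshold.

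The other abundant genes had small differences from WT in Irp1-/- mice. Hist1h2bp, the most counted H2B gene, had 40.0, 40.4, 42.9 and 41.6 CPM in Irp1-/- and 36.5, 39.6, 38.7 and 38.7 CPM in WT mice. These did not overlap, at a log2 fold change of 0.09 (SE 0.050, adjusted p = 0.495, edgeR). Hist1h4a, which gave 87.6% of the H4 CPM, had 14.3, 13.9, 12.2 and 16.3 CPM in Irp1-/- and 9.04, 12.6, 12.1 and 12.4 CPM in WT mice (log2 fold change 0.28, SE 0.10, adjusted p = 0.223, edgeR). Hist2h2be and Hist1h2bc, H2B genes without a stem-loop in their models, had log2 fold changes of -0.03 and 0.07, each below its SE. Hist2h2ac, an H2A gene, had -0.66 and the pseudogene row Hist3h2bb-ps -0.83 (adjusted p = 0.332 and 0.316, edgeR), and both overlapped between genotypes.

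The second comparison set Irp2-/- against WT testes, and 0 of 17 tested members were called (edgeR), where 1.21% of 16154 genes were. At an unadjusted p under 0.05 (edgeR) there were 3 of 17, against 1522 of 16154 genes. DESeq2 called 0 of its 61 members, where 0.903% of 20699 genes were called. Those 61 include members with few counts, which its own filter can leave with no adjusted p. Only Hist1h3a did not overlap in CPM, 1 of 17 against 9.76% of all genes tested. The median log2 fold change was -0.07 against 0.00 over all genes, with 5 positive and 12 negative. Hist2h2ac had 1.83, 1.27 and 2.32 CPM in Irp2-/- mice and 4.22, 4.10, 2.89 and 2.11 CPM in WT mice, and WT replicate 4 lay within the Irp2-/- range. Its log2 fold change was -0.90 (SE 0.25, adjusted p = 0.0862, edgeR), and without WT replicate 4 it was called (adjusted p = 0.0152). Hist1h2ag had -0.98 (SE 0.30, adjusted p = 0.157, edgeR), and the 11 summed copies had -0.68 (adjusted p = 0.571, edgeR). The sums by type had log2 ratios of -0.09 for H1, -0.00 for H2A, 0.03 for H2B, -0.22 for H3 and -0.09 for H4.

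The third comparison set both knockouts against each other. As the source of the Irp2-/- line is not given, other differences between the lines cannot be told apart from the effects of the knockouts. Of 18 tested members 1 was called, Hist1h3a, where 4.69% of 16281 genes were called, and 2 of 18 (Hist1h3a and Hist3h2a) did not overlap, against 15.1% of all genes tested. With 18 members tested, the share not overlapping was near that over all genes. Hist1h3a was higher in Irp1-/- mice, 4.49 ± 0.246 CPM (SD, n = 4) against 2.70 ± 0.357 CPM (SD, n = 3), at a log2 fold change of 0.74 (SE 0.15, adjusted p = 0.00446, edgeR). The call was made in each of 7 fits that left out 1 mouse (log2 fold change 0.66 to 0.86). Of its coding stretches 33.1% were unique, and the 9 Hist1h3 genes linked by shared stretches had 4.75, 4.19, 4.82 and 5.41 CPM in sum in Irp1-/- mice against 2.68, 3.51 and 2.97 CPM in Irp2-/- mice, and Irp2-/- replicate 2 lay within the WT range of 3.41 to 3.79 CPM. That summed row was also called (log2 fold change 0.65, SE 0.15, adjusted p = 0.0123, edgeR), 1 of 14 histone rows.

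Hist3h2a had 4.33, 3.92, 3.52 and 3.71 CPM in Irp1-/- and 3.27, 3.15 and 3.40 CPM in Irp2-/- mice (log2 fold change 0.25, SE 0.15, adjusted p = 0.425, edgeR). Hist1h4a had 0.40 (SE 0.12, adjusted p = 0.0812, edgeR), with Irp2-/- replicate 1 at 13.2 CPM and the other two at 9.87 and 9.02 CPM. Irp2-/- replicate 1 had the highest histone total of its group, and without it Hist1h3a, Hist1h4a, Hist2h2aa1 and Hist2h3c2 were called, 4 of 21 tested, where 4.64% of 16438 genes were. The linker gene Hist1h1c had 0.51 (SE 0.23, adjusted p = 0.260, edgeR).

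**Figure D5:**
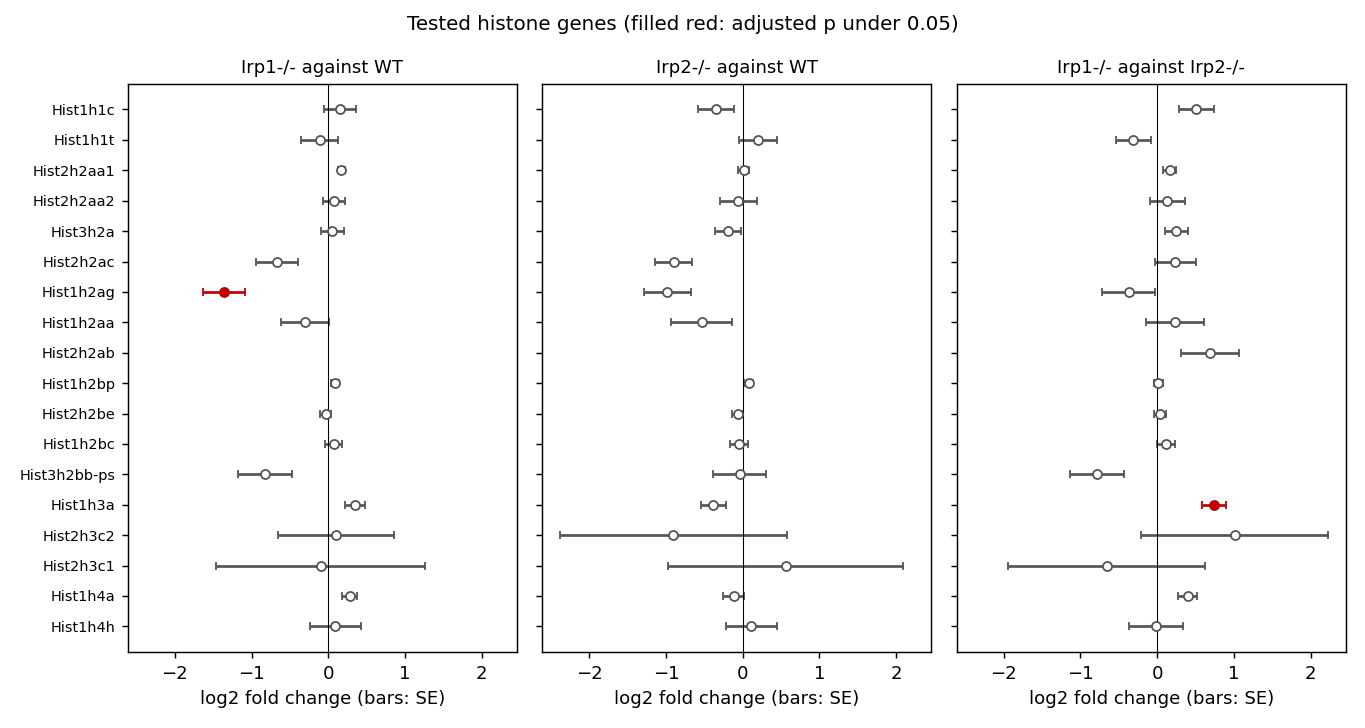
Points are log2 fold changes of the members tested in each comparison, bars are standard errors and filled red points have an adjusted p under 0.05 in edgeR. Only Hist1h2ag (-1.35, Irp1-/- against WT) and Hist1h3a (0.74, Irp1-/- against Irp2-/-) are filled, and the widest bars belong to Hist2h3c1 and Hist2h3c2.

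The histones of spermatocytes were scarce in these poly(A) libraries and none was called. Hist1h1t, the spermatocyte linker histone with an AATAAA signal and a stem-loop, had 16 to 41 counts per library, a mean of 1.41 CPM in WT, 1.31 CPM in Irp1-/- and 1.64 CPM in Irp2-/- mice. Its log2 fold change was -0.11 (SE 0.24, adjusted p = 0.907, edgeR) for Irp1-/- and 0.20 (SE 0.25, adjusted p = 0.901, edgeR) for Irp2-/- against WT. Hist1h2aa had 4 to 20 counts per library and log2 fold changes of -0.31 (SE 0.31) and -0.53 (SE 0.40). Hist1h2ba had 5 to 27 counts per library, 0.403 CPM on average in WT, and did not pass the filter on low counts. The highest Hist1h2ba value, 1.20 CPM, was that of Irp1-/- replicate 2.

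Histones listed as replication-independent, most of whose mRNAs carry poly(A) tails, were far more abundant in these poly(A) libraries. They had 2202 to 2499 CPM in sum over 17 listed rows. Of 15 tested, 0 were called in any comparison (edgeR), with 3, 2 and 1 at an unadjusted p under 0.05. Over all genes tested, 1.02%, 1.21% and 4.69% were called. An unadjusted p under 0.05 (edgeR) was reached by 1941 of 16002, 1522 of 16154 and 2661 of 16281 genes. These shares stand beside every list below. H3f3b, which encodes H3.3, had 409 to 474 CPM, and H2afx, the H2A of DNA breaks, 50.4 to 61.2 CPM. The spermatid linker histones H1fnt and Hils1 had 601 to 712 and 361 to 445 CPM.

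Genes that make and end histone mRNA were tested as a list of 16. None was called for Irp1-/- against WT (edgeR, 3 at an unadjusted p under 0.05), 1 for Irp2-/- against WT and 4 between the knockouts. Of all genes tested, 1.21% and 4.69% were called in the latter comparisons. Zcchc11, a uridyltransferase that acts on histone mRNA ends, had 86.4, 85.2 and 94.5 CPM in Irp2-/- and 71.0, 69.3, 75.6 and 75.2 CPM in WT mice (log2 fold change 0.26, SE 0.051, adjusted p = 0.00608, edgeR). That call was lost without Irp2-/- replicate 3 (adjusted p = 0.0512, edgeR). Between the knockouts Zcchc11 (-0.35), Casp8ap2 (-0.25), which is needed for histone transcription, and Lsm10 (-0.38), part of the U7 particle that cuts histone mRNA, were lower in Irp1-/- mice, and the cleavage factor Cstf2 was higher (0.22). Of 7 fits that left out 1 mouse, Zcchc11 was called in 7, Cstf2 in 4, Lsm10 in 3 and Casp8ap2 in 1. Slbp had a median of 95.5 CPM over the 11 libraries and Npat, the activator of histone transcription, 33.4 to 40.4 CPM, with log2 fold changes of -0.01 each for Irp1-/- and 0.02 and 0.06 for Irp2-/- against WT.

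Among 18 chaperone genes, Ssrp1, a subunit of the FACT complex that moves nucleosomes, fell in Irp1-/- against WT (log2 fold change -0.18, SE 0.041, adjusted p = 0.0232, edgeR), and it was the only gene of this list called in the 3 comparisons (4, 0 and 3 at an unadjusted p under 0.05). The Ssrp1 call held in 3 of 8 fits that left out 1 mouse (adjusted p up to 0.157, edgeR). Removing Irp1-/- mouse 1 or 6, or any of the WT mice 1, 2 and 4, ended it. Nasp, the chaperone of H1 and H3, had 1045 to 1284 CPM and log2 fold changes of -0.06 and -0.03 against WT. Of 20 genes of DNA replication, none was called against WT (edgeR, 1 at an unadjusted p under 0.05 for each knockout), and Pole was lower in Irp1-/- than in Irp2-/- mice (log2 fold change -0.21), a call lost without Irp1-/- replicate 1 or Irp2-/- replicate 3 (adjusted p up to 0.0840, edgeR). The replication list summed to 622 to 638 CPM in Irp1-/-, 641 to 651 CPM in WT and 648 to 671 CPM in Irp2-/- mice. Of 10 genes of the exchange of histones for protamines, 0 were called in any comparison (edgeR, 1, 2 and 0 at an unadjusted p under 0.05).

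Markers of other cells were counted beside the histone genes. Of all genes tested, 1.02% were called for Irp1-/- against WT and 4.69% between the knockouts. Of 10 Sertoli markers 1 was called (Clu, higher), with sums of 1214 to 1386 CPM in Irp1-/-, 1087 to 1194 CPM in WT and 1084 to 1266 CPM in Irp2-/- mice. Of 8 Leydig markers 1 was called (Hsd17b3, higher), with sums of 1020 to 1197 CPM in Irp1-/- and 739 to 1088 CPM in WT mice. WT replicates 1 and 2 had 766 and 739 CPM of the Leydig list, and WT replicate 3 lay within the Irp1-/- range. Clu was called in 3 and Hsd17b3 in 4 of 8 fits that left out 1 mouse (adjusted p up to 0.307 and 0.124, edgeR). Both calls ended when Irp1-/- mouse 1, WT mouse 1 or WT mouse 2 was removed, that of Clu also on removing Irp1-/- mouse 6 or WT mouse 3, and that of Hsd17b3 also on removing Irp1-/- mouse 7. Between the knockouts, Amh, Fshr and Rhox5 of the Sertoli list, Hsd3b1 and Insl3 of the Leydig list, Actg2 of the myoid list and Lyzl1 and Tex21 of the round spermatid list were higher in Irp1-/- mice, and Sall4 of the spermatogonia list was lower. Each of these 9 calls was lost in at least 2 of 7 fits that left out 1 mouse, and each of the 7 mice ended at least 1 of them when removed. Counting all tested markers in that comparison, log2 fold changes were positive in 7 of 10 Sertoli, 8 of 8 Leydig, 3 of 6 myoid, 10 of 10 round spermatid and 1 of 9 spermatogonia markers. Spermatocyte markers had 0 of 10 called in any comparison (edgeR, 3, 0 and 2 at an unadjusted p under 0.05). Against WT, none of the tested markers of spermatogonia, round spermatids, elongating spermatids, myoid cells, macrophages, endothelial cells or blood was called in either knockout (edgeR, 0 to 2 of a list at an unadjusted p under 0.05). Of RNAs that lack a poly(A) tail and of epididymis markers, none passed the filter. The part of these cell types in the histone values was not tested.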

How the data were processed

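RNA of decapsulated mouse testis was poly(A)-enriched, and stranded libraries were sequenced as paired reads of 50 bases. The authors deposited raw counts per gene, produced by nf-core on the mm10 build. Which program counted the reads is not given in the sources used here, and the whole numbers could be rounded estimates. Per the labels, processing used bcl2fastq 2.20.0.422 and DESeq2. Column names carry L, or R for Irp1-/- replicate 6, with no meaning stated. The labels number the samples within each genotype and tie no same-numbered mice together. A p-value sets the difference between genotypes against the spread between these samples.

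Members and gene lists were chosen with earlier results of these data known. CPM used each library's total count. Each pair of genotypes was fitted across all genes in R 4.3.3 with edgeR 4.0.16 (filterByExpr, TMM, robust quasi-likelihood test) and adjusted by the Benjamini-Hochberg method. The steps were tested on simulated data, in which only well counted genes were changed, and by more than most differences given here. That test does not cover members with few counts, such as Hist1h2ag, or small changes. Replicates of a genotype differed by more than sampling noise (chi-square per degree of freedom 1.97 to 6.75). Shared stretches and stem-loops came from GENCODE vM21 with Python 3.11.15, and promoters from RefSeq. Copies were linked when they shared at least 50% of the coding stretches of 1 of them. The rule for named genes took Aco1, Ireb2, the 3 testis histones, the 4 members of each type with the highest mean CPM, called members, per comparison up to 3 members in each direction with the largest change among those not overlapping, called genes of the 17 lists, and Slbp, Npat, H2afx, H3f3b and Nasp. Sycp3, Prm1, H1fnt and Hils1 were added after their values were seen, as were the genes shown for their sequences. Alternatives were RLE normalization, no count filter, at least 10 counts in every sample, DESeq2 1.42.0, a fit of all 11 samples, a replicate block, and leaving out each replicate. Summing copies was added after the data were seen. Counts limit the precision of members under about 20 counts a library.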

Additional observations from a re-analysis of the deposited data

Results flagged for a closer look

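Among 67 groups of 4 mice examined (members, sums by type and sums of copies, in WT and Irp1-/-), 4 held a mouse far from the other 3 by Dixon's test, and chance alone flags about 1 in 20 groups. Hist1h1c had 1.36 CPM in Irp1-/- replicate 6 against 2.01 to 2.14 CPM in the others of its genotype. Hist1h1e had 0 CPM in WT replicate 3 against 0.110 to 0.122 CPM, which rests on 2 counts in each of the others. Hist1h4a had 9.04 CPM in WT replicate 1 against 12.1 to 12.6 CPM, and the summed H4 genes, of which it is the main part, had 10.7 CPM there against 13.9 to 14.5 CPM. Hist1h3a differed by 0.74 on the log2 scale between the 2 knockouts (edgeR, Irp1-/- against Irp2-/-), and knockout effects cannot be told apart from other differences between the lines.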

How the results depend on the processing

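The called members depended on a few settings. For Irp1-/- against WT, 1 member was called, and the count was 2 with no count filter (Hist1h2ag and Hist2h2aa1), 0 with at least 10 counts in every sample, which drops Hist1h2ag, and 0 with copies summed, where Hist1h2ag and its copies had -0.79; leaving out 1 mouse gave 1 to 2. DESeq2 called 1, Hist2h2aa1, and its own filter left Hist1h2ag with no adjusted p. For Irp2-/- against WT leaving out 1 mouse gave 0 to 1, and between the knockouts 1 to 4.

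Deviations of same-numbered mice from their group means had correlations of -0.02 to 0.12, and those of other pairs -0.13 to 0.084. With so few mice this check cannot exclude a tie between same-numbered mice, and no label gives one. With a replicate block 2 members (Hist1h2ag and Hist2h3c1) and 439 genes were called for Irp1-/- against WT and 3 members (Hist1h3a, Hist2h2ac and Hist2h3c1) between the knockouts, and genes of the lists went from 3 to 14 for Irp1-/- against WT and from 1 to 2 for Irp2-/- against WT. Irp1-/- mice share only the numbers 1 and 2 with WT and with Irp2-/- mice. In those comparisons the genotype effect under the block rests on mice 1 and 2 of each genotype alone. Aco1 then had a log2 fold change of -0.28 for Irp1-/- against WT and was not called (adjusted p = 0.314, edgeR). Pole, Actg2, Sall4, Casp8ap2 and Lsm10 lost their calls between the knockouts under the block. In numbers of all genes, 164 were called for Irp1-/- against WT and 55 to 216 without 1 mouse, 196 for Irp2-/- against WT and 118 to 223, and 763 between the knockouts and 414 to 763. Genes of the lists called were 3, 1 and 14, and without 1 mouse 0 to 3, 1 to 2 and 3 to 10; the fit of all samples gave 1 for Irp1-/- against WT and DESeq2 gave 8 between the knockouts.

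Sums by type without the most counted member had log2 ratios of -0.011 (H2A), 0.12 (H3) and -0.11 (H4) for Irp1-/- against WT, of 0.084 (H1), -0.15 (H2A), -0.056 (H2B) and -0.12 (H3) for Irp2-/- against WT, and of -0.17 (H1), 0.23 (H3) and -0.16 (H4) between the knockouts. The cause of these changes was not tested.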
